A study of Mus musculus with 30 samples.

Results

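The comparison set 3 mouse brain tumors initiated in the subventricular zone (SVZ) against 4 tumors initiated in the hippocampus, the regions that keep making neurons in the adult mouse brain. The members were the arrays titled as SVZ tumors 1 to 3 and NES tumors 1 to 4, which are 7 of the 30 arrays of the series. Per the labels, the SVZ tumors arose after injection of a vector with Cre under the GFAP promoter (GFAP SVZ tumors), and the hippocampal ones after injection of a vector with Cre under a promoter labelled NES (NES hippocampus tumors). Promoter and region therefore both differ between the groups and cannot be told apart. The arrays used beside them were 7 tumors of GFAP-driven Cre in the hippocampus (GFAP hippocampus tumors), 4 normal hippocampi and 4 normal cortices. Tumors of GFAP-driven and of SYN1-driven Cre in the cortex, 4 of each, entered the spread only. The labels give neither the cassettes, strain, age or sex, nor whether each array is a separate animal. The p-values therefore rest on how much these arrays varied, and that variation may be technical. Normal SVZ tissue was not analysed here. Total RNA of each dissected tumor was hybridised to 1 Affymetrix Mouse Gene 1.0 ST array, and all values are log2 signal, so that a difference of 1 is a 2-fold change.

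GFAP is the intermediate filament of astrocytes and is also made by adult neural stem cells, while nestin, the product of Nes, is the intermediate filament of neural progenitors. SVZ stem cells lie along the lateral ventricle beside the striatum and send young neurons to the olfactory bulb and some cells into the oligodendrocyte lineage, whereas hippocampal stem cells lie in the dentate gyrus and make granule neurons. Oligodendrocyte precursors spread through the whole brain, depend on the transcription factors Olig2 and Sox10, and carry a gene program that is shared with the proneural class of glioma. The mesenchymal class of glioma is instead marked by genes of adhesion, matrix and wound response.

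Over 19938 genes, the correlation between 2 of the 7 arrays lay between 0.883 and 0.990. Array medians were 7.61 to 7.67 in the SVZ tumors and 7.76 to 7.99 in the NES tumors, so the groups differed in overall signal. NES tumor 1 stood apart from its own group. Its mean correlation was 0.966 with the SVZ tumors and 0.946 with the other NES tumors, while NES tumors 2 to 4 averaged 0.893 to 0.927 with the SVZ tumors. NES tumors 2 to 4 were also close to normal hippocampus, with mean correlations of 0.947 to 0.967, against 0.833 to 0.878 for the SVZ tumors and 0.880 for NES tumor 1. All 3 SVZ tumors had low Xist, the RNA that coats the inactive X chromosome of females, and all 4 NES tumors had high Xist, so sex and group cannot be told apart either. GFAP hippocampus tumors 5 to 7 and GFAP cortex tumor 1, known from earlier work on these files to stand apart, had the lowest medians (7.42 to 7.52, against 7.57 to 7.99 in the other 26 arrays) and the narrowest interquartile ranges of signal (1.88 to 2.40 against 2.45 to 3.03). Their mean correlation with the arrays of their own group was 0.868 for the cortex tumor and 0.889, 0.941 and 0.938 for the hippocampus tumors, of which GFAP hippocampus tumors 6 and 7 lay within the range of the other tumors by this measure. All 4 entered the spread that was shared by all groups.

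The SVZ tumors had lower signal of Olig2, Penk and Gpr83 and higher signal of Notch2, Flnc and Dhrs9 than the NES tumors. In limma with the spread of all 30 arrays, 1320 of 19938 genes (6.62%) passed an adjusted p of 0.05. Of these, 1116 (5.6%) were lower and 204 (1.02%) higher in the SVZ tumors. The median difference over all genes was 0.04, and 873 of the called genes differed at least 2-fold. The excess of lower calls depended on the scale: with each array centred on its median, 852 genes were lower and 1175 higher, and after quantile normalization 890 were lower and 834 higher. Centring moved the median difference of all genes from 0.04 to 0.27. The arrays of the groups did not overlap for 3976 genes (19.9%), and 986 genes (4.95%) both passed and did not overlap.

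The calls rested on few arrays. Without NES tumor 3, no gene passed limma's adjusted threshold, although 3162 had an unadjusted p below 0.05, against 4556 with all arrays. Without SVZ tumor 1 there were 3 calls, without SVZ tumor 2 there were 8, without NES tumor 4 there were 46 and without NES tumor 2 there were 67. Without NES tumor 1 there were 3090, and without SVZ tumor 3 there were 1675. In the 7 arrays alone 8 genes (0.0401%) passed. Without the 4 arrays that stand apart 4263 passed, and then between 2538 and 5946 with any 1 of the 7 arrays also left out.

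**Figure D1:**
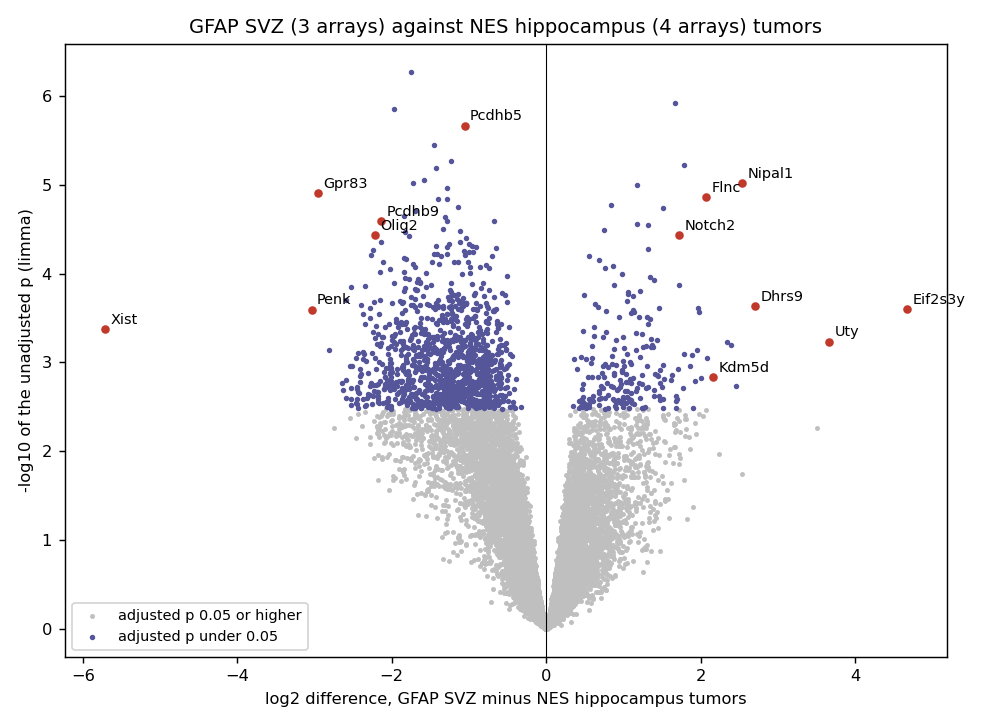
Each point is 1 of 19938 genes, with the log2 difference between the mean of the 3 GFAP SVZ tumors and the mean of the 4 NES hippocampus tumors on the horizontal axis and -log10 of limma's unadjusted p on the vertical axis. The 1320 genes with an adjusted p below 0.05 are dark, and 1116 of them lie to the left of 0, which means lower in the SVZ tumors.

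NES tumor 1 lay between the groups for most of the called genes. Among the 1116 lower genes it was the lowest of the NES arrays for 1006 (90.1%), and among the 204 higher genes it was the highest for 171 (83.8%). Its median position was 41.1% of the way from the SVZ mean to the mean of NES tumors 2 to 4 for the lower genes and 41.7% for the higher ones. The 8 normal arrays of hippocampus and cortex give a reference level. For 1058 of the 1116 lower genes every SVZ tumor was below all 8 normal arrays, whereas every NES tumor was below them for 207. For 184 of the 204 higher genes every SVZ tumor was above all 8 normal arrays, and every NES tumor was above them for 67. Both sets of genes were called from these same tumor arrays, which favours extreme SVZ values, so the counts are a description only. The shares over all genes were not computed, and which group left the normal level was not tested.

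Oligodendrocyte precursor and proneural genes were lower in the SVZ tumors. Of 16 measured genes of this list, 9 passed the test as lower and none as higher, against 5.6% lower among all genes. The median difference of the list was -1.23. All 16 differences were negative, and the groups did not overlap for 12 genes with the SVZ tumors lower, against 11.7% of all genes. The list's mean signal was 7.51, 7.91 and 7.82 in SVZ tumors 1 to 3, and 8.62, 8.83, 9.66 and 9.34 in NES tumors 1 to 4. Here NES tumor 1 was above every SVZ tumor. The range in normal hippocampus was 8.66 to 8.88, so the SVZ tumors were below it and NES tumors 3 and 4 above it. The count was 0 in the 7 arrays alone, 0 without NES tumor 3, 12 without NES tumor 1 and 13 without the 4 arrays that stand apart. In the same settings 5, 0, 2376 and 3086 of all 19938 genes passed as lower.

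Olig2, the transcription factor that specifies the oligodendrocyte lineage, had signals of 6.95, 7.75 and 7.02 in the SVZ tumors and of 8.96, 9.09, 10.01 and 9.78 in the NES tumors. The means were 7.24 ± 0.44 (SD, n = 3) and 9.46 ± 0.51 (SD, n = 4), a difference of -2.22 (SE 0.45, adjusted p = 0.0217). Every NES tumor was above the highest SVZ tumor, and the SVZ tumors were below the normal hippocampus range of 8.64 to 8.94. Olig1, its neighbour on chromosome 16, read 7.40, 8.29 and 8.04 in the SVZ tumors and 9.44, 9.82, 11.05 and 10.69 in the NES tumors, a difference of -2.34 (SE 0.57, adjusted p = 0.0286). Its groups did not overlap either. Gpr17, a receptor of precursors that are about to differentiate, was 6.91, 7.36 and 6.70 against 8.0, 8.11, 9.74 and 9.20, a difference of -1.77 (SE 0.36, adjusted p = 0.0217). Sox10, which drives myelin genes, differed by -1.19 (adjusted p = 0.0374) and its relative Sox8 by -1.23 (adjusted p = 0.0274). Erbb3, a neuregulin receptor, differed by -1.08 (adjusted p = 0.0325), and Bcan, the matrix proteoglycan brevican, by -2.30 (adjusted p = 0.0378). Pdgfra, the receptor through which PDGF drives precursor division, did not follow these genes. It read 11.29, 11.01 and 8.81 in the SVZ tumors and 10.86, 10.27, 10.93 and 10.53 in the NES tumors, and its difference of -0.28 did not pass (adjusted p = 0.771). SVZ tumors 1 and 2 were above every NES tumor for Pdgfra, and SVZ tumor 3 was below all of them.

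Lhfpl3 and Pcdh15 belong to the same list and their transcripts mark oligodendrocyte precursors. Their promoters are shown with that of Olig2 because the genes moved together and because Olig1 and Olig2 are basic helix-loop-helix proteins, a family that binds E-boxes. The sequences are from RefSeq (GRCm38.p6), run from 250 bases before to 50 after the start of transcription, and have the E-box CAGCTG, which reads the same on both strands, in capitals. The Lhfpl3 promoter lies at chr5:22745804-22746103 (+), that of Pcdh15 at chr10:73821617-73821916 (+) and that of Olig2 at chr16:91225300-91225599 (+).
Lhfpl3: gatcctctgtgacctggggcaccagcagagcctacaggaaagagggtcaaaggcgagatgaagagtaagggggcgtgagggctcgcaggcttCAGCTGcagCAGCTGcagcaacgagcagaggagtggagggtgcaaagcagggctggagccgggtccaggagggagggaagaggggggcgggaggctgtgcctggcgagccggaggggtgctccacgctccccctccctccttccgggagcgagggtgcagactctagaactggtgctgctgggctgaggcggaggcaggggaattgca
Pcdh15: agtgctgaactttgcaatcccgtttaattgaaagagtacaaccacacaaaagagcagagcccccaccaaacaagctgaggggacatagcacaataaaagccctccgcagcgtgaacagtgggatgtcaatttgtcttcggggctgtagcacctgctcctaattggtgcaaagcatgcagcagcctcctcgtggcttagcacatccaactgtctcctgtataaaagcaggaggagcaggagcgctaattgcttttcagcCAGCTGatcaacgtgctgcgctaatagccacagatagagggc
Olig2: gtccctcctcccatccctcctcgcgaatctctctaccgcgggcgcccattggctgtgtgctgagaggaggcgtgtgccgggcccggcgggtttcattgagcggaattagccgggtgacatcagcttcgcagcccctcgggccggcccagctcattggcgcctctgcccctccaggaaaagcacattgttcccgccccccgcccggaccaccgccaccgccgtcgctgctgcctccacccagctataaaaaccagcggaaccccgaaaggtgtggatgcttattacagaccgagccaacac

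Lhfpl3, a membrane protein of the tetraspan family, read 8.24, 8.61 and 8.95 in the SVZ tumors and 10.22, 10.23, 11.35 and 10.80 in the NES tumors, a difference of -2.05 (SE 0.53, adjusted p = 0.0325). Pcdh15, a protocadherin, read 6.95, 6.95 and 7.15 against 8.42, 8.23, 9.40 and 8.89, a difference of -1.72 (SE 0.49, adjusted p = 0.0397). Neither gene's groups overlapped. The Lhfpl3 window holds the E-box at 2 places, that of Pcdh15 at 1, and that of Olig2 at none. Of the 16 genes of the list 11 have a promoter in the RefSeq table, and 4 of these 11 hold CAGCTG (Lhfpl3, Pcdh15, Dll3 and Ncan), against 16.3% of the 32851 promoters of that length in the table. Of these 4, Dll3 and Ncan did not pass in limma (adjusted p = 0.29 and 0.0905). The windows of Bcan and Sox8, which passed, hold no CAGCTG, like that of Olig2. Whether the E-box goes with the change in signal was not tested. A match of these letters is a description of the sequence, and binding was not measured.

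**Figure D2:**
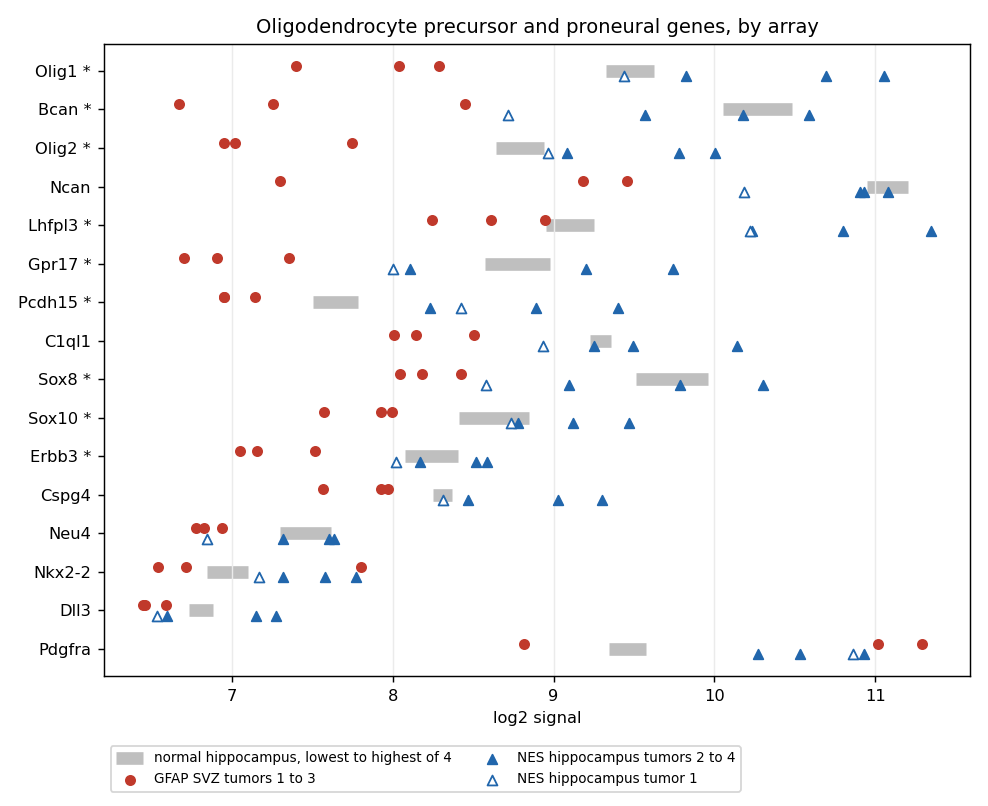
Log2 signal of the 16 measured oligodendrocyte precursor and proneural genes, with red circles for GFAP SVZ tumors 1 to 3, filled triangles for NES hippocampus tumors 2 to 4, an open triangle for NES hippocampus tumor 1 and a grey bar from the lowest to the highest of 4 normal hippocampi. The 9 genes with a star passed the adjusted p of 0.05, and for these 9 the red circles lie to the left of every triangle.

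Of 10 measured genes of mature oligodendrocytes and myelin, 4 passed as lower (Ugt8a, Ermn, Mog and Opalin), against 5.6% of all genes. All 10 had a negative difference, and the list's median difference was -1.67. Ugt8a, which makes the galactolipid of myelin, read 7.05, 7.74 and 6.99 in the SVZ tumors and 8.78, 9.71, 10.46 and 10.17 in the NES tumors (difference -2.52, SE 0.57, adjusted p = 0.0267). Opalin, a myelin membrane protein, read 5.62, 6.18 and 6.44 against 7.05, 7.88, 8.32 and 8.45 (difference -1.85, SE 0.36, adjusted p = 0.0197). The list's mean was 10.38 to 10.51 in NES tumors 2 to 4, within the normal hippocampus range of 10.24 to 10.55, 9.39 in NES tumor 1 and 7.73 to 8.92 in the SVZ tumors.

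In whole tissue, fewer cells of a type and less RNA per cell cannot be told apart. Of 22 measured neuronal genes 5 passed as lower in the SVZ tumors (Gad1, Rbfox3, Elavl4, Thy1 and Stmn2), against 5.6% of all genes, and 17 did not pass. The list's median difference was -1.80, with 21 negative differences. The list's mean was 8.80, 9.01 and 9.90 in the SVZ tumors, 10.03 in NES tumor 1 and 10.88 to 11.34 in NES tumors 2 to 4, against 11.09 to 11.33 in normal hippocampus. NES tumor 1 was 0.13 above SVZ tumor 3 on this list.

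Single genes show the same order. Rbfox3, the antigen NeuN of mature neurons, read 7.70, 7.78 and 9.40 in the SVZ tumors and 9.45, 10.78, 11.11 and 10.65 in the NES tumors (difference -2.20, SE 0.61, adjusted p = 0.0368). Gad1, the GABA-making enzyme, read 7.68, 8.55 and 9.62 against 9.57, 11.31, 11.91 and 10.996 (difference -2.33, SE 0.63, adjusted p = 0.0351), with SVZ tumor 3 and NES tumor 1 almost equal. Of 12 measured postsynaptic genes 2 passed as lower (5.6% of all genes did), the glutamate receptor Grm5 (-2.51, adjusted p = 0.0362) and its scaffold Homer1 (-1.14, adjusted p = 0.0413), and the list's median difference was -1.69. The neuron count was 0 in the 7 arrays alone and without NES tumor 3, and 9 without SVZ tumor 3. It was 13 without NES tumor 1 and 18 without the 4 arrays that stand apart. Lower calls over all 19938 genes numbered 5, 0, 1436, 2376 and 3086 in these settings in turn.

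The 15 genes with the largest lower signal in the SVZ tumors, among those that passed and did not overlap, were Xist, Penk, Gpr83, Plppr5, Grm3, Vxn, Sst, Elmod1, Gnal, Gabrb2, Ano3, Ugt8a, Grm5, Gabra3 and Spock3. Several of them are neuronal: Gabrb2 and Gabra3 are subunits of the GABA receptor and Gnal is the G protein of olfactory and striatal neurons. Grm3 is a glutamate receptor. Penk, the precursor of the enkephalins, read 8.80, 8.86 and 9.85 in the SVZ tumors and 11.21, 12.44, 13.12 and 12.06 in the NES tumors (difference -3.04, SE 0.72, adjusted p = 0.0267). Sst, the peptide of a class of interneurons, read 8.53, 8.35 and 9.65 against 10.11, 11.43, 12.62 and 11.60 (difference -2.60, SE 0.60, adjusted p = 0.0267). Gpr83, a G protein-coupled receptor of the brain, read 6.46, 6.23 and 6.56 against 8.52, 10.02, 10.29 and 8.68 (difference -2.96, SE 0.55, adjusted p = 0.0172). The lowest NES tumor was 1.95 above the highest SVZ tumor for Gpr83.

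Regional markers were set against the labelled regions, the striatum because it lies beside the SVZ. Of 15 measured striatal genes 5 passed as lower in the SVZ tumors (Penk, Drd2, Rgs9, Rasd2 and Foxp2), against 5.6% of all genes, and the list's median difference was -1.83. The list's mean was 7.48 to 7.56 in the SVZ tumors and 7.66 in NES tumor 1, but 9.48, 10.23 and 9.10 in NES tumors 2 to 4. Normal hippocampus lay between 7.99 and 8.08 and normal cortex between 8.46 and 9.66. The GFAP hippocampus tumors ranged from 7.42 to 9.53 with a median of 7.52, so the highest of them was level with NES tumors 2 and 4. Isl1, a homeobox factor of developing striatal projection neurons, was the 1 gene of the list with a positive difference, at 10.17, 8.998 and 6.54 in the SVZ tumors and 6.88, 7.16, 8.03 and 6.84 in the NES tumors (1.34, adjusted p = 0.122).

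Drd2, the dopamine receptor of striatopallidal neurons, read 7.08, 7.33 and 7.79 in the SVZ tumors and 7.66, 10.28, 11.19 and 9.80 in NES tumors 1 to 4 (difference -2.33, SE 0.71, adjusted p = 0.0484). NES tumor 1 lay within the SVZ range, and NES tumors 2 to 4 were above every normal hippocampus (7.84 to 8.14). Rgs9, a regulator of striatal G protein signalling, read 7.18, 7.16 and 7.39 against 7.62, 9.74, 10.65 and 9.16 (difference -2.05, adjusted p = 0.0457). Drd1, the receptor of striatonigral neurons, read 7.30, 7.35 and 7.41 against 7.15, 9.69, 9.88 and 8.88, and its difference of -1.55 did not pass (adjusted p = 0.15). The striatal count was 0 in the 7 arrays alone and without NES tumor 3, 2 after quantile normalization and 1 without SVZ tumor 3. It was 13 without NES tumor 1 and 12 without the 4 arrays that stand apart. Of all 19938 genes, 5, 0, 890, 1436, 2376 and 3086 passed as lower in these settings in turn.

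Hippocampal genes were on average below normal hippocampus in all 7 tumors. The mean of the 15 measured genes was 7.22 to 7.6 in the SVZ tumors and 7.47 to 8.13 in the NES tumors, against 9.39 to 9.73 in normal hippocampus and 8.11 to 8.27 in normal cortex. The GFAP hippocampus tumors, which have the same labelled region as the NES tumors, lay at 6.97 to 7.51 with a median of 7.42. Only Bcl11b passed in limma, as lower in the SVZ tumors (-1.17, adjusted p = 0.0417), which is 6.67% of the list against 5.6% of all genes. The list's median difference was -0.17, which turned to 0.05 with arrays centred. Fibcd1, a marker of CA1 pyramidal neurons, read 7.19, 6.96 and 7.33 in the SVZ tumors and 6.83, 7.04, 7.39 and 7.28 in the NES tumors, where normal hippocampus had 9.13 to 9.43 and normal cortex 7.16 to 7.51. Prox1, the factor of dentate granule neurons, read 7.58, 8.20, 8.25 and 8.64 in the NES tumors and 7.18 to 7.32 in the SVZ tumors, against 9.84 to 10.24 in normal hippocampus. Every NES tumor was thus above every SVZ tumor for Prox1, whose difference of -0.92 did not pass (adjusted p = 0.0813), and all 7 were below normal hippocampus. Where the tissue was dissected was not tested.

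**Figure D3:**
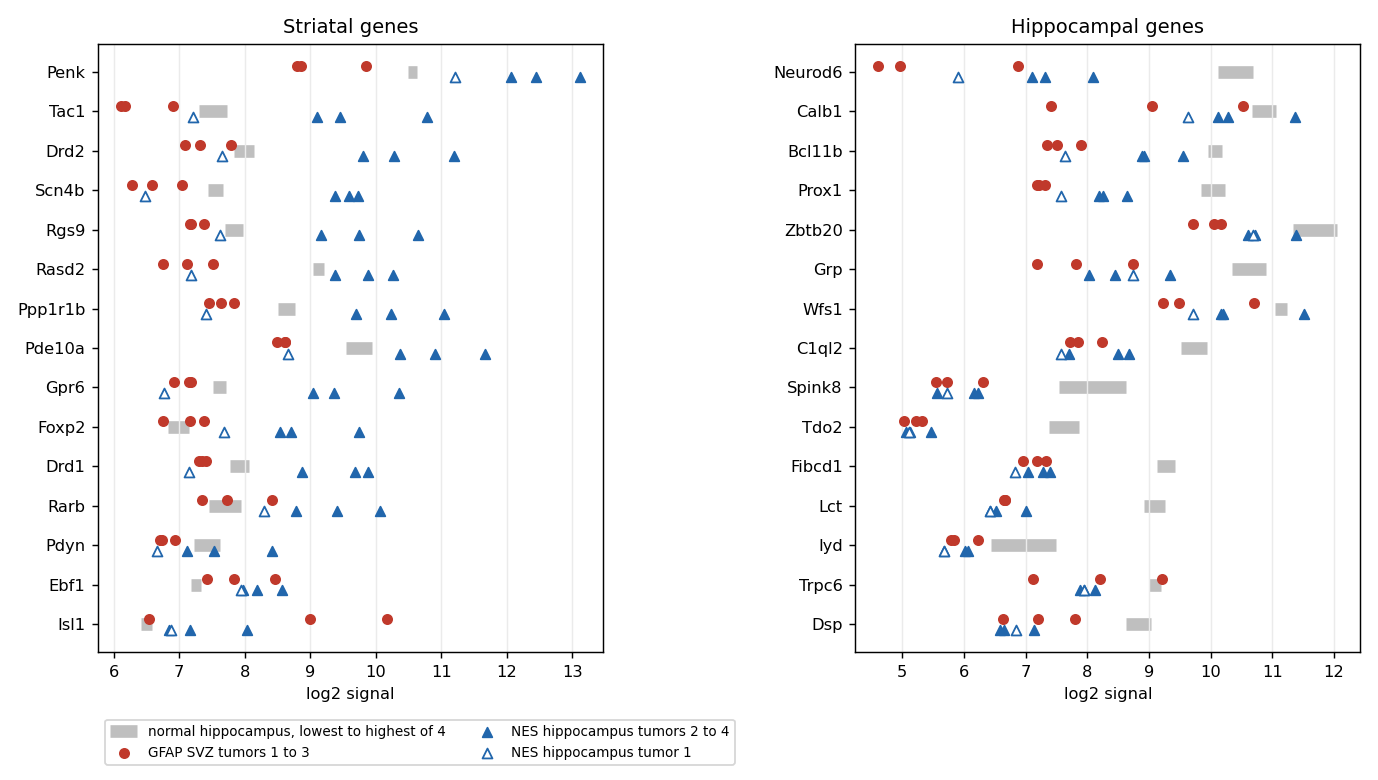
Log2 signal of 15 striatal genes (left) and 15 hippocampal genes (right), with red circles for GFAP SVZ tumors, filled triangles for NES hippocampus tumors 2 to 4, an open triangle for NES hippocampus tumor 1 and grey bars for the range of 4 normal hippocampi. For Drd2 the filled triangles lie at 9.80 to 11.19, to the right of the bar at 7.84 to 8.14, and for Fibcd1 all tumors lie at 6.83 to 7.39, to the left of the bar at 9.13 to 9.43.

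Progenitor genes gave no common direction. Of 16 measured neural stem and progenitor genes 2 passed, both lower in the SVZ tumors, against 5.6% of all genes. The list's median difference was -0.02, which became 0.20 with arrays centred and 0.17 after quantile normalization. Dcx, a microtubule protein of young migrating neurons, read 6.66, 6.75 and 7.18 in the SVZ tumors and 8.05, 8.29, 9.20 and 8.65 in the NES tumors (difference -1.68, SE 0.46, adjusted p = 0.0368). Nr2e1, a nuclear receptor of adult neural stem cells, differed by -1.12 (adjusted p = 0.043). The genes whose promoters drove Cre did not pass. Nes itself read 11.27, 11.66 and 10.67 in the SVZ tumors and 11.53, 10.003, 9.08 and 9.04 in the NES tumors (difference 1.29, adjusted p = 0.133). Gfap read 9.60, 10.39 and 11.17 against 11.39, 12.05, 12.02 and 11.31 (difference -1.31, adjusted p = 0.295). Nestin signal was thus lower in NES tumors 2 to 4 than in every SVZ tumor, and Gfap was higher in every NES tumor than in every SVZ tumor. None of 14 measured astrocyte genes passed in limma at the adjusted threshold, although all 14 differences were negative with a median of -1.33. In the same list 11 genes passed as lower without the 4 arrays that stand apart, where 3086 of all 19938 genes did.

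The genes with higher signal in the SVZ tumors formed a shorter list. The 15 with the largest difference were Eif2s3y, Uty, Dhrs9, Nipal1, Tnfrsf23, Cd93, Angptl4, Kdm5d, Pf4, Flnc, Tmprss11f, Mapk13, Igf2bp1, Sema3a and Pcolce. Dhrs9, a retinol dehydrogenase, read 10.03, 10.23 and 10.72 in the SVZ tumors and 9.02, 7.65, 6.69 and 7.09 in the NES tumors (difference 2.71, SE 0.64, adjusted p = 0.0267). Flnc, the actin crosslinker filamin C, read 10.80, 11.12 and 11.34 against 10.32, 9.20, 8.19 and 8.36 (difference 2.07, SE 0.39, adjusted p = 0.0172). Angptl4, a secreted inhibitor of lipoprotein lipase that hypoxia induces, read 11.16, 11.15 and 10.23 against 10.05, 9.05, 7.49 and 7.42 (difference 2.34, SE 0.60, adjusted p = 0.0323). In each of these genes NES tumor 1 was the highest NES array and lay nearest to the SVZ tumors. Igf2bp1, an RNA-binding protein of fetal tissue and of many tumors, read 9.17, 9.30 and 9.14 against 7.94, 7.21, 6.73 and 7.09 (difference 1.96, SE 0.46, adjusted p = 0.0267).

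Notch2, a receptor of the Notch pathway, was the only 1 of 14 Notch pathway genes that passed as higher, against 1.02% of all genes. It read 11.11, 11.32 and 10.82 in the SVZ tumors and 10.07, 9.56, 8.98 and 8.83 in the NES tumors (difference 1.72, SE 0.35, adjusted p = 0.0217). Its groups did not overlap, and normal hippocampus lay at 8.70 to 8.98. Hey2, a target of Notch signalling, passed limma in the other direction (-1.0, adjusted p = 0.046), as 5.6% of all genes did. The ligand Jag1 did not pass (0.68, adjusted p = 0.639). The median difference of the pathway was -0.07, and it became positive, at 0.15, with arrays centred and at 0.12 after quantile normalization.

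Mesenchymal glioma genes were higher in the SVZ tumors in direction, with 1 of 18 past the test against 1.02% of all genes. All 18 differences were positive, and their median was 1.06. The list's mean was 10.95 to 11.14 in the SVZ tumors, 11.18 in NES tumor 1, and 10.13, 9.24 and 9.28 in NES tumors 2 to 4, against 7.73 to 8.99 in normal hippocampus. NES tumor 1 was therefore above every SVZ tumor, and the difference lay in NES tumors 2 to 4. The gene that passed was Met, the receptor of hepatocyte growth factor, at 9.45, 8.79 and 9.0 against 9.28, 7.74, 7.51 and 7.31 (difference 1.12, adjusted p = 0.0393). S100a6, a calcium-binding protein, read 12.02, 12.09 and 12.56 against 11.77, 10.63, 9.09 and 9.26, and its difference of 2.04 did not pass (adjusted p = 0.0542). The count was 0 in the 7 arrays alone, 7 after quantile normalization, 9 without NES tumor 1 and 10 without the 4 arrays that stand apart. Higher calls over all 19938 genes also changed, to 3, 834, 714 and 1177 in that order.

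**Figure D4:**
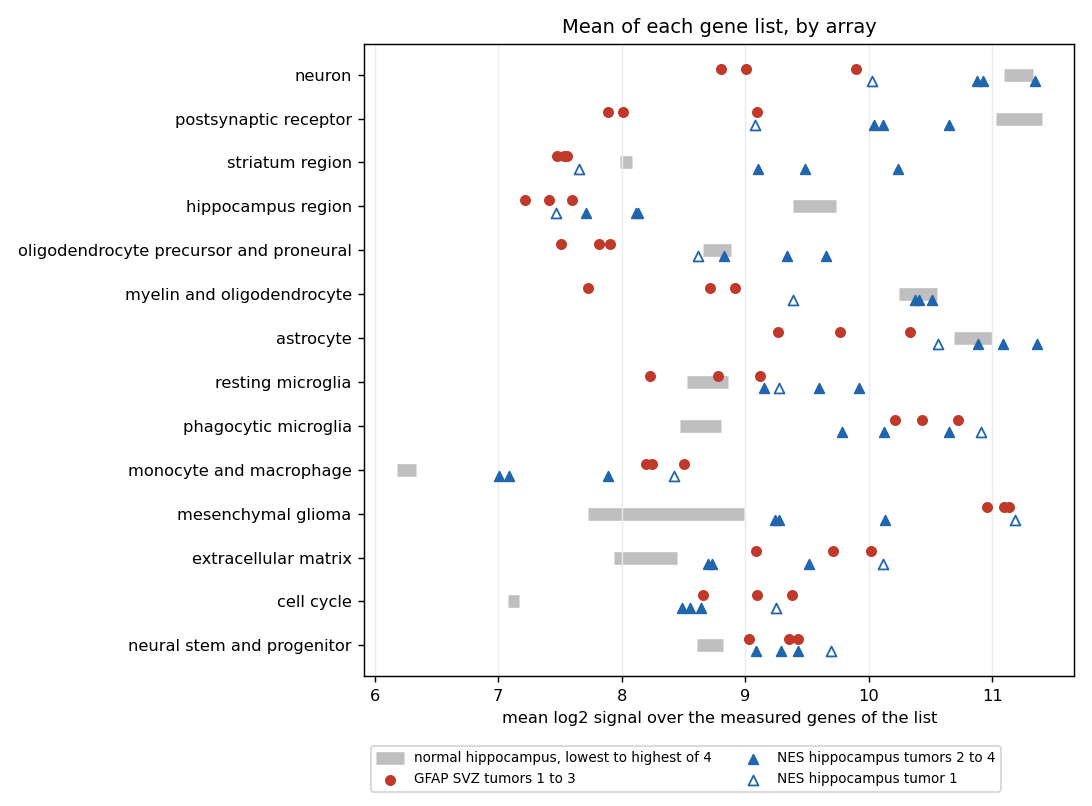
Mean log2 signal over the measured genes of 14 lists, with red circles for GFAP SVZ tumors, filled triangles for NES hippocampus tumors 2 to 4, an open triangle for NES hippocampus tumor 1 and grey bars for the range of 4 normal hippocampi. On the mesenchymal list the open triangle, at 11.18, lies just right of the red circles at 10.95 to 11.14, whereas on the oligodendrocyte precursor list, at 8.62, it lies to the right of all of them.

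Immune and vessel gene lists held few calls. Against 1.02% of all genes that passed as higher, 2 of 13 monocyte and macrophage genes did so, Mrc1, the mannose receptor of tissue macrophages (1.69, adjusted p = 0.0465), and F13a1, a clotting factor that macrophages make (1.25, adjusted p = 0.0499). The list's mean was 8.19 to 8.50 in the SVZ tumors, 8.42 in NES tumor 1 and 7.01 to 7.89 in NES tumors 2 to 4, against 6.18 to 6.33 in normal hippocampus. Among 16 chemokine genes Ccl8 passed as higher (1.63, adjusted p = 0.0381) and Cx3cl1, which neurons make, as lower (-1.84, adjusted p = 0.0224). Prf1, the perforin of cytotoxic lymphocytes, passed as higher among 15 T and NK cell genes at low signal, with 7.05 to 7.25 against 6.64 to 6.77 (0.43, adjusted p = 0.0498). Lpl passed limma as lower among 13 genes of phagocytic microglia (-0.92, adjusted p = 0.032), which is 7.69% of them against 5.6% of all genes.

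In limma no gene passed among 11 of resting microglia, 22 of the interferon response, 14 of antigen presentation, 14 of endothelium, 12 of mural cells and fibroblasts, 14 of ependyma and choroid plexus, 19 of extracellular matrix or 24 of the cell cycle. Their median differences were -0.74, -0.17, 0.25, 0.21, -0.03, 0.02, 0.16 and 0.26 in that order. Of these, those of the interferon response and of mural cells turned positive with arrays centred, at 0.06 and 0.19. Nor did any gene pass among 16 of ERK response and feedback (0.27), 9 of complement (0.13), 14 of the acute phase and reactive glia (0.10), 11 of B cells and neutrophils (0.35) or 2 of red blood cells (0.17).

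Other lists held 1 to 3 calls each, where 1.02% of all genes passed as higher and 5.6% as lower. Mdm2, the ubiquitin ligase that p53 induces and that degrades p53, read 10.16, 10.08 and 9.98 in the SVZ tumors and 9.60, 9.31, 9.0 and 8.61 in the NES tumors (difference 0.94, SE 0.23, adjusted p = 0.0283). It was the only call among 9 p53 target genes. Adm, the vasodilator adrenomedullin, was the only call among 15 genes of hypoxia and glycolysis, with 10.14, 9.67 and 9.97 against 9.17, 8.20, 7.34 and 7.55 (difference 1.86, adjusted p = 0.0362). Among growth factors and their receptors Met was higher, and Fgfr2 (-1.10, adjusted p = 0.0325) and the ligand Tgfa (-0.84, adjusted p = 0.04) were lower, of 17 genes. Bmp4 (-1.05, adjusted p = 0.0368) and Wnt7a (-0.75, adjusted p = 0.0267), secreted signals of stem cell niches, were the calls among 21 genes of the Wnt, BMP and Hedgehog pathways. Among 16 measured ventral forebrain factors limma called only Lhx6, as higher in the SVZ tumors (1.00, adjusted p = 0.0493). Lhx6 marks interneurons of the medial ganglionic eminence. Its groups overlapped, and its adjusted p in limma was 0.232 in the 7 arrays alone. Of the 16 differences 10 were negative. Among 13 measured dorsal forebrain factors Eomes, of intermediate progenitors, was also higher (1.68, adjusted p = 0.045), and Neurod1, of granule neurons, was lower (-0.91, adjusted p = 0.0499). For Eomes the signals were 9.67, 8.14 and 6.54 against 6.62, 6.52, 6.24 and 6.35, so that SVZ tumors 1 and 2 carried the difference.

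The beta genes of the clustered protocadherins, cell-surface adhesion molecules of neurons that stand in tandem on chromosome 18, were grouped after their values had been seen and are given as a description. Of 22 measured genes 16 passed as lower, against 5.6% of all genes, and 18 did not overlap between the groups with the SVZ tumors lower, against 11.7% of all genes. Their median difference was -1.07. Pcdhb9 read 4.74, 4.98 and 4.91 in the SVZ tumors and 6.52, 6.93, 7.47 and 7.13 in the NES tumors (difference -2.13, SE 0.42, adjusted p = 0.0197). Pcdhb18 read 6.68, 6.75 and 6.77 against 7.82, 7.95, 8.20 and 7.85 (difference -1.22, SE 0.33, adjusted p = 0.0344). Pcdhb5 read 6.02, 6.33 and 6.47 against 7.09, 7.41, 7.42 and 7.41 (difference -1.06, SE 0.18, adjusted p = 0.0108). In these genes NES tumor 1 was nearer to another NES tumor than to any SVZ tumor.

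Pcdhb1 alone had a positive difference (0.22, adjusted p = 0.542). The mean over the family was 6.28, 6.34 and 6.56 in the SVZ tumors, 6.99 in NES tumor 1 and 7.41 to 7.81 in NES tumors 2 to 4, and 7.40 to 7.6 in normal hippocampus. Pcdhb9 and Pcdhb18 were among the 8 genes that passed in the 7 arrays alone (adjusted p = 0.0411 and 0.0441). The family's count was 0 without NES tumor 3, 19 without NES tumor 1 and 19 without the 4 arrays that stand apart. Those settings called 0, 2376 and 3086 of all 19938 genes as lower. The beta genes are close copies of each other, and probes of 1 may read another, so the members are not separate measurements.

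**Figure D5:**
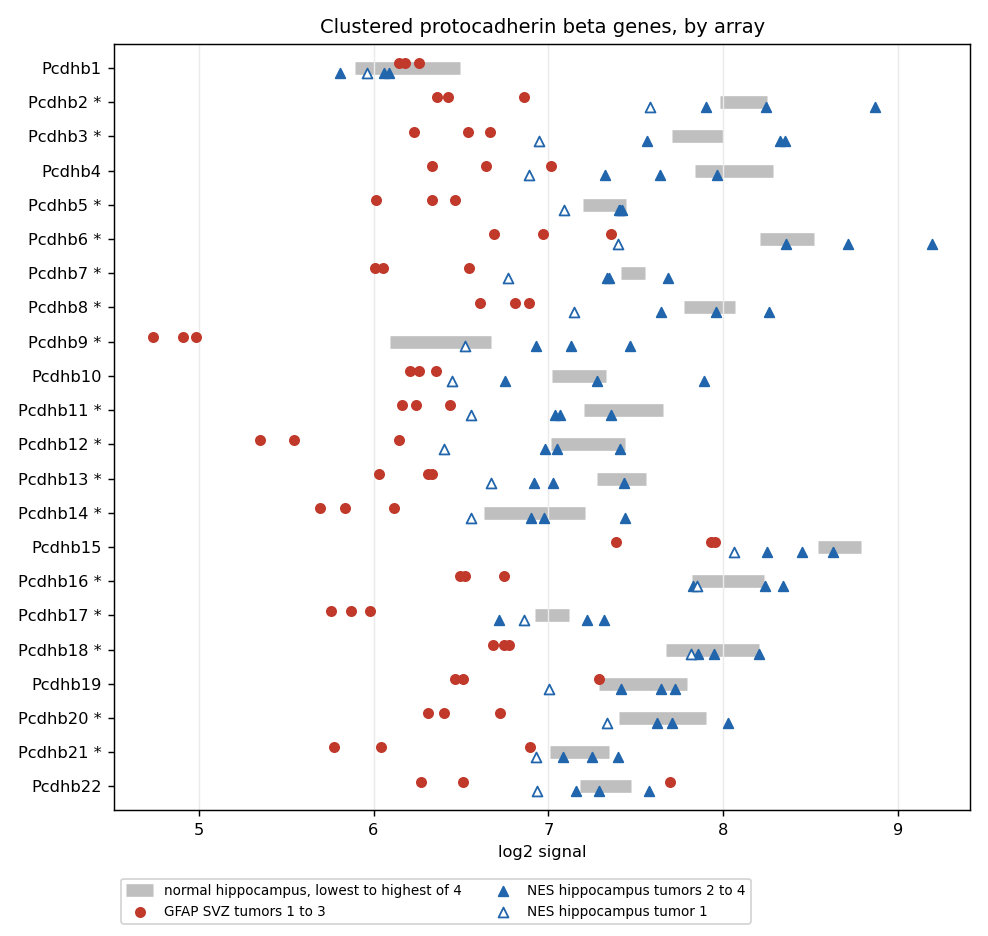
Log2 signal of the 22 protocadherin beta genes, with red circles for GFAP SVZ tumors, filled triangles for NES hippocampus tumors 2 to 4, an open triangle for NES hippocampus tumor 1 and grey bars for the range of 4 normal hippocampi. Stars mark the 16 genes with an adjusted p below 0.05, and for Pcdhb9 the red circles at 4.74 to 4.98 lie farthest from the triangles at 6.52 to 7.47.

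MicroRNAs are short RNAs that pair through their seed, bases 2 to 8, with target transcripts, and the array's probe sets for them read the precursor or host transcript rather than the mature strand. Of 300 measured microRNA genes 7 (2.33%) passed, all lower in the SVZ tumors, which is a smaller share than the 5.6% lower among all genes. In limma 34 of the 300 had an unadjusted p below 0.05, against 4556 of all 19938 genes, and 9 of the 34 were higher. Mir341, Mir323, Mir485, Mir377 and Mir369, which are 5 of the 7, lie within chr12:109611500-109743496 (GRCm38.p6, + strand), in the imprinted Dlk1 to Dio3 cluster whose noncoding RNAs come from the maternal allele. This cluster was likewise picked after the values had been seen. Mature sequences that RefSeq lists for these 5 are shown with the seed in capitals, to make plain that they do not share one.
mmu-miR-341-3p: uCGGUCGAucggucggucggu
mmu-miR-323-3p: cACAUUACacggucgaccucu
mmu-miR-485-3p: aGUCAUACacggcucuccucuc
mmu-miR-377-3p: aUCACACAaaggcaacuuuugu
mmu-miR-369-3p: aAUAAUACaugguugaucuuu

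Mir377 read 5.77, 5.75 and 5.78 in the SVZ tumors and 6.26, 7.42, 7.70 and 6.90 in the NES tumors (difference -1.31, SE 0.38, adjusted p = 0.0436). Mir341 read 8.25, 8.55 and 8.25 against 8.75, 9.93, 9.57 and 9.03 (difference -0.97, SE 0.25, adjusted p = 0.0325). All 5 had no overlap between the groups, with the SVZ tumors lower. They were taken from the called genes, of which 986 of 1320 did not overlap, so this is a description only. NES tumor 1 was the lowest NES tumor in each. The long noncoding RNAs of the same cluster passed too. Meg3 read 8.92, 9.50 and 10.13 against 10.37, 11.65, 11.71 and 10.79 (difference -1.62, SE 0.50, adjusted p = 0.0497), and Rian read 6.29, 6.53 and 6.48 against 7.19, 8.38, 8.45 and 7.63 (difference -1.48, SE 0.36, adjusted p = 0.0283). Of the protein-coding genes of the cluster, Dlk1 differed by -1.10 (adjusted p = 0.38), Rtl1 by -0.07 (adjusted p = 0.824) and Dio3 by 0.11 (adjusted p = 0.691), and none passed. Mir421 on the X chromosome (-1.28, adjusted p = 0.0325) and Mir690 on chromosome 16 (-1.04, adjusted p = 0.0439) were the other calls.

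Xist, Eif2s3y and Uty, all sex-linked, gave the largest differences. Xist read 5.69, 5.83 and 5.95 in the SVZ tumors and 11.47, 11.68, 11.72 and 11.29 in the NES tumors, a difference of -5.72 (SE 1.42, adjusted p = 0.0303). The Y-linked genes Eif2s3y (4.67, adjusted p = 0.0267), Uty (3.66, adjusted p = 0.0322) and Kdm5d (2.16, adjusted p = 0.0389) were higher in the SVZ tumors. Xist exceeded 9 in 4 of 7 GFAP hippocampus tumors, in 1 of 4 normal hippocampi and in 1 of 4 normal cortices. In the 7 arrays alone the SE of Xist was 0.145, with an adjusted p of 9.59e-06, and Eif2s3y had an adjusted p of 1.63e-05.

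Of the 739 genes of the X chromosome 61 (8.25%) passed, 57 of them lower in the SVZ tumors, against 6.54% of the autosomal genes. The mixed groups allowed a fit with Xist above 9 as a term, chosen after the data were seen. In it 4 genes passed, Notch2 (2.34, adjusted p = 0.0305), Pcdhb5 (-1.24, adjusted p = 0.0305), Brinp3 (-2.25, adjusted p = 0.0305) and Qsox1 (1.85, adjusted p = 0.0367). The differences themselves kept their sign in 1319 of the 1320 called genes, and the median ratio of the new difference to the old was 106%, while the median SE rose 1.24 times. The term rests on the mixed groups alone and is taken as equal in all groups, which was not tested. The low-Xist GFAP hippocampus tumors were 3, 5 and 7, and tumors 5 and 7 are among the arrays that stand apart. This fit therefore cannot separate sex from group. Without the term, Brinp3, Qsox1 and the growth factor gene Fgf1 were the calls at an adjusted p of 0.01. These 3 genes were chosen after their values had been seen.

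Beside sex genes and protocadherins, the 7 arrays alone called Moxd1, a monooxygenase-like protein, and Itga8, the integrin alpha 8 chain, also picked after their values were seen. Moxd1 read 6.67, 7.49 and 7.02 in the SVZ tumors and 9.42, 9.13, 9.44 and 9.03 in the NES tumors (difference -2.19, adjusted p = 0.0323 in the 7 arrays and 0.0541 in all 30). Itga8 read 6.61, 6.64 and 6.99 against 8.22, 8.43, 8.51 and 8.44 (difference -1.65, adjusted p = 0.0186 in the 7 arrays and 0.0964 in all 30). In both genes NES tumor 1 was with its own group.

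The GFAP hippocampus tumors share the Cre promoter of the SVZ tumors and the labelled region of the NES tumors, and both comparisons with them share arrays with the one above. Between SVZ and GFAP hippocampus tumors 63 genes (0.316%) passed, 30 (0.15%) higher and 33 (0.166%) lower in the SVZ tumors. Between GFAP hippocampus and NES tumors 1637 (8.21%) passed, 417 (2.09%) higher and 1220 (6.12%) lower in the GFAP hippocampus tumors.

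Olig2 differed by -0.96 (adjusted p = 0.263) between SVZ and GFAP hippocampus tumors and by -1.26 (adjusted p = 0.0375) between GFAP hippocampus and NES tumors. Pcdhb16, with 6.74, 6.49 and 6.52 in the SVZ tumors and 7.85, 8.24, 8.34 and 7.83 in the NES tumors, differed by -1.30 (adjusted p = 0.0408) and by -0.18 (adjusted p = 0.69) in the same comparisons. Among the 22 protocadherin beta genes it was the only 1 that passed as lower between SVZ and GFAP hippocampus tumors, against 0.166% of all genes. Between GFAP hippocampus and NES tumors 5 of the family passed as lower, against 6.12% of all genes. The family's median differences were -0.58 and -0.53 in that order. Whether the steps of a gene differ from each other was not tested. Lhx6 was also called between SVZ and GFAP hippocampus tumors (1.42, adjusted p = 0.0215). For Sst the values were -0.10 (adjusted p = 0.948) and -2.50 (adjusted p = 0.0129). Without the 4 arrays that stand apart the counts became 134 and 4218.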

How the data were processed

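The 30 arrays were analysed as the authors deposited them, as log2 signal for 35556 probe sets. Affymetrix Power Tools, MAS5 and RMA are named, per the submitters' processing notes, and how the arrays were normalized to each other is not given in the sources used here. Log2 signal includes background, so differences between dim genes are compressed, and the number of arrays limits the precision. Probe sets with 1 symbol (21789) were named through the platform annotation and the RefSeq table of GRCm38.p6, of which 21698 matched, and the probe set with the highest mean was kept for each of 19938 genes. Probe sets with several symbols (1621) or none (12146) were not used.

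Group means of all 7 groups were fitted with limma 3.58.1 in R 4.3.3 (lmFit, contrasts.fit, eBayes; 23 residual degrees of freedom), with Benjamini-Hochberg adjustment over all genes and a threshold of 0.05. The fit was tested on simulated data. Genes were named by a rule (the 15 largest differences each way that passed and did not overlap, without gene models, olfactory and small RNA genes) and as members of 34 gene lists, which are described by counts and medians only. Members and lists were chosen with earlier results of these data known. Alternatives covered scaling, filtering, probe set choice, variance model, arrays included and the replicate block.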

Additional observations from a re-analysis of the deposited data

Results flagged for a closer look

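In the 4 NES tumors, 125 sets of values were examined (the called list genes, the named genes and the list means) for 1 array lying far from the other 3, by the gap to the nearest array as a share of the group's range, and 8 passed Dixon's 95% limit. Chance alone passes about 1 in 20, and 8 of 125 is near that share. The sets are also not independent, since Mog and Ermn are members of the myelin list. In all 8 the array was NES tumor 1, which lay on the side of the SVZ tumors. The ratio was 0.965 for Mapk13 (8.22 in NES tumor 1 against 7.16 to 7.2 in the others), 0.958 for Pcdhb5 (7.09 against 7.41 to 7.42) and 0.921 for Vxn (9.02 against 10.86 to 11.01). It was 0.884 for Nipal1 (7.56 against 6.36 to 6.50), 0.845 for Cd93 (10.66 against 8.91 to 9.19), 0.841 for Ermn (8.69 against 9.93 to 10.17) and 0.836 for Mog (8.88 against 10.15 to 10.40). The mean of the myelin list gave 0.878, with 9.39 in NES tumor 1 and 10.38 to 10.51 in the others. Why NES tumor 1 differs was not tested.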

How the results depend on the processing

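The number of genes called between SVZ and NES tumors (1320, with 204 higher and 1116 lower in SVZ) moved with most settings. It was 2027 (1175 higher) with arrays centred on their medians and 1724 (834 higher) after quantile normalization. It was 8 (3 higher, 5 lower) in the 7 arrays alone, 4263 (1177 and 3086) without the 4 arrays that stand apart, and 7694 (3236 and 4458) with array weights. It was 3 (1 and 2) at an adjusted p of 0.01 and 873 (111 higher) at 2-fold. With Xist as a covariate, chosen after seeing the data, it was 4 (2 and 2), and Kdm5d turned to -0.00238. With each array left out it ran from 0 to 3090 (higher 0 to 714, lower 0 to 2376). With the 4 arrays also left out, an addition after seeing the data, it ran from 2538 to 5946 (higher 634 to 2117, lower 1904 to 3829).

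Replicate numbers 1 to 3 occur in both groups, but the deviations of same-numbered arrays from their group means correlated at 0.211, -0.0218 and 0.207, and SVZ tumor 2 correlated best with NES tumor 1 (0.290), so no pairing was assumed. With the replicate block the count was 2927 (828 and 2099), and with the replicate block in the 7 arrays alone 465 (22 and 443). Lower oligodendrocyte precursor genes numbered 5, neuronal genes 8 and striatal genes 1 in that last fit. With the replicate block in all arrays neuronal genes numbered 15 and striatal genes 11, the SVZ against GFAP hippocampus comparison had 31 calls (134 without the 4 arrays) and GFAP hippocampus against NES 2744 (4218 without the 4 arrays).

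Lower oligodendrocyte precursor, neuronal and striatal genes each numbered 0 in the 7 arrays, at an adjusted p of 0.01 and with the Xist covariate, and 14, 18 and 13 with array weights. Without the 4 arrays neuronal genes numbered 18 and striatal genes 12. Striatal genes numbered 2 after quantile normalization and 8 without the dimmest 30% of genes. Leaving out 1 array gave 0 to 12, 0 to 13 and 0 to 13, and with the 4 arrays also left out neuronal genes numbered 13 to 18 and striatal genes 6 to 13. Of 91 named genes, 91 kept direction and call without the 4 arrays and 80 when centred. After quantile normalization 72 did, and in the 7 arrays 6 did. In these 4 settings none changed sign. With 1 array left out the call was kept by 0 (NES tumor 3, SVZ tumor 1), 2 (SVZ tumor 2) and 6 (NES tumor 4). It was kept by 9 without NES tumor 2, 73 without SVZ tumor 3 and 91 without NES tumor 1. With the Xist covariate 2 kept it. The number of arrays and their background signal limit these data, and sex, promoter and region cannot be told apart.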
